A study of Mus musculus with 6 samples.

Results

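The 9 genes described here encode proteins of families that read DNA methylation at CpG dinucleotides, or proteins that act at imprinted loci: the methyl-CpG binding domain genes *Mbd1*, *Mbd2*, *Mbd3* and *Mbd4*, the methyl-CpG binding zinc finger genes *Zbtb4* and *Zbtb38*, and the imprint guardians *Zfp57*, *Trim28* and *Ctcf*. They were picked out by gene symbol, and all 9 were found among the 49671 genes of the deposited count table and passed the filter on low counts. RNA was sequenced from neurospheres, floating clonal aggregates of adult neural stem cells (NSCs) from the mouse subventricular zone grown with EGF and FGF, with 3 libraries labelled Tet3-Gfap cre and 3 labelled Tet3-Gfap control. Both groups came from adult mice on a C57BL6 background that carry loxP sites around exon 5 of both *Tet3* alleles. The Tet3-Gfap cre mice were also hemizygous for a cre recombinase under the *Gfap* promoter, which the Tet3-Gfap control mice lacked. The deletion is thus made in cells with an active *Gfap* promoter and their progeny, counts over the whole gene still include the other *Tet3* exons, and each independent culture pooled the tissue of a pair of mice. The study describes its culture experiments in general as independent repeats and the sequenced samples as triplicates, but the labels do not say which culture each library came from, and the p-values reflect how far these samples spread.

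Methyl-CpG binding proteins link methylated DNA to silent chromatin. MBD2 and MBD3 occupy the same place in alternative forms of the NuRD complex, which removes histone acetyl groups and remodels nucleosomes, while MBD4 is a glycosylase that repairs the T:G mismatches left when methylated cytosine deaminates. At imprinting control regions the parental methylation mark is kept by ZFP57, a zinc finger protein that binds a methylated hexamer and recruits TRIM28 (KAP1), the scaffold of a repressor complex, whereas CTCF binds only the unmethylated copy of the *Igf2*-*H19* control region and acts there as an insulator. TET3, the dioxygenase deleted in this model, acts on the same methylated cytosines. In *Tet3*-deficient neurospheres, however, the paper found no change in global methylated or hydroxymethylated cytosine, nor at the *Snrpn* promoter region. It attributes the repression of *Snrpn* to an action of TET3 that does not need its catalytic function.

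Libraries held 29660398 to 35405326 counts. *Tet3* stood at 61.3, 60.5 and 116 CPM (counts relative to library size after TMM normalization) in the libraries labelled cre 1, 2 and 3, whereas the libraries labelled control 1, 2 and 3 had 114, 136 and 60.3 CPM. The paper describes a cre transgene built on a *Gfap* cassette with its introns and exons. Whether transgene transcripts are among the *Gfap* counts was not tested. *Gfap* stood at 3.84, 3.52 and 0.280 CPM under the cre labels and at 0.503, 0.327 and 6.62 CPM under the control labels. The libraries labelled cre 3 and control 3 thus went against their labels for both genes, so the fold change of each of the 9 genes below is given by the labels and again for the 4 libraries labelled cre 1, cre 2, control 1 and control 2. By the labels *Tet3* had a log2 fold change of -0.38 (SE, the standard error, 0.35, edgeR quasi-likelihood adjusted p = 1.00). In the 4 libraries it was -1.04 (SE 0.10, same test, adjusted p = 0.0159). The values of *Tet3* and *Gfap* decided which libraries were left out, so this last p-value is no independent test of *Tet3*. The 10 markers of neural stem and progenitor cells, *Nes*, *Sox2*, *Vim* and *Fabp7* among them, summed to 8920 to 9759 CPM in the libraries labelled cre and 10208 to 10328 CPM in those labelled control. The sums did not overlap, although 3 of the 10 markers were each higher in cre without overlap, and the part of this difference in any result below was not tested. Marker sums under the cre and the control labels ran from 803 to 1169 and from 964 to 1227 CPM for astrocytes, from 48.2 to 68.7 and from 33.4 to 131 CPM for neurons, from 74.8 to 91.4 and from 60.0 to 88.9 CPM for oligodendrocytes, and from 21.8 to 23.7 and from 16.1 to 19.5 CPM for ependymal cells. Microglial, endothelial and mural or fibroblast markers summed to at most 1.95 CPM in each library, except for mural and fibroblast markers at 11.6 CPM in the library labelled cre 1. In such bulk libraries fewer cells of a type and less RNA per cell cannot be told apart.

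None of the 9 genes was called higher or lower in the libraries labelled cre. The quasi-likelihood test of edgeR called 0 of the 9 by the labels, against 0.00% of the 16916 genes tested, and 0 of the 9 had an unadjusted p under 0.05, against 5.0% of all genes tested (846 genes). In the 4 libraries it again called 0 of the 9, against 0.459% of 17003 genes, and 1 of the 9, *Mbd2*, had an unadjusted p under 0.05, against 11.2%. There 5 of the 9 did not overlap between groups, with *Mbd2* higher and *Mbd1*, *Mbd3*, *Zbtb38* and *Trim28* lower in cre, against 20.2% of all genes higher, 20.4% lower and 40.6% in either direction. By the labels the other tests run also called 0 of the 9, where DESeq2 called 0.414% of all genes tested, the exact test of edgeR 0.402%, the likelihood-ratio test 0.301% and limma-voom 0.00%. At such shares 0 of 9 is no result about these genes. Under the labels 4 of the 9 log2 fold changes lay above 0 and their median was -0.0019, beside -0.0050 over all genes tested. Their median size without regard to sign was 0.077, beside 0.087 over all genes tested. The plot of log2 fold changes shows how far each interval reached.

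**Figure D1:**
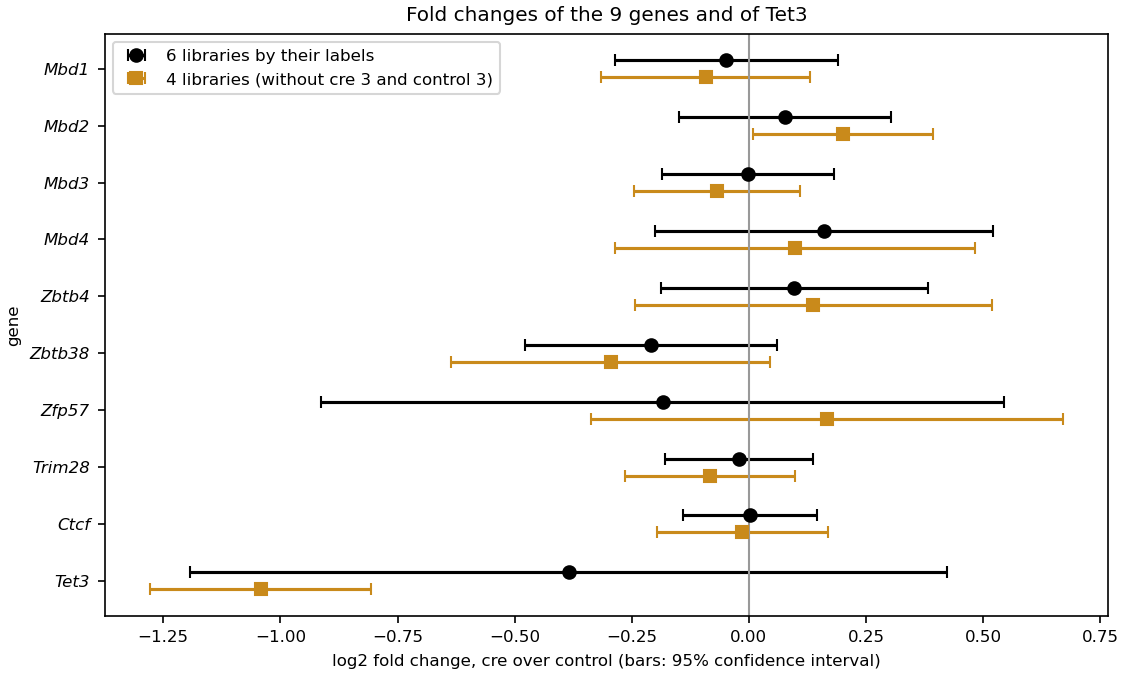
Log2 fold change of cre over control (x axis) for each of the 9 genes and for *Tet3* (y axis), from the 6 libraries by their labels (black circles) and from the 4 libraries without cre 3 and control 3 (orange squares); bars are 95% confidence intervals. By the labels all 10 intervals include 0. In the 4 libraries, which were chosen by their *Tet3* and *Gfap* values, the *Tet3* interval lies below 0. The *Mbd2* interval there, from 0.0084 to 0.39, lies just above 0 with an edgeR quasi-likelihood adjusted p of 0.425.

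The 9 genes differed far more from each other in level than any of them did between genotypes. Per kilobase of exon, *Trim28* (115 CPM per kb, mean of 6 libraries) and *Mbd3* (106 CPM per kb) led, and 96.9% and 96.6% of the genes tested lay below them. *Ctcf* followed at 34.2, *Mbd2* at 12.5, *Mbd1* at 5.50, *Zfp57* at 3.95, *Zbtb4* at 1.69, *Mbd4* at 1.66 and *Zbtb38* at 1.15 CPM per kb. The median over the genes tested was 5.33 CPM per kb, so that *Mbd1* sat in the middle of the transcriptome and the zinc finger genes *Zbtb4* and *Zbtb38* in its lower part. Neighbours in this order overlapped in their ranges over libraries for *Trim28* and *Mbd3*, for *Mbd1* and *Zfp57*, and for *Zbtb4* and *Mbd4*. *Trim28* was nevertheless above *Mbd3* in 6 of 6 libraries and *Mbd1* above *Zfp57* in 5 of 6, whereas *Zbtb4* was above *Mbd4* in only 2 of 6. For the other 5 neighbouring pairs the ranges did not overlap. Lengths are those of all annotated exons joined, so a gene with exons that these cells do not use is given too low a level. The *Trim28* model begins at 12999114, upstream of the RefSeq start site at 13024152.

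**Figure D2:**
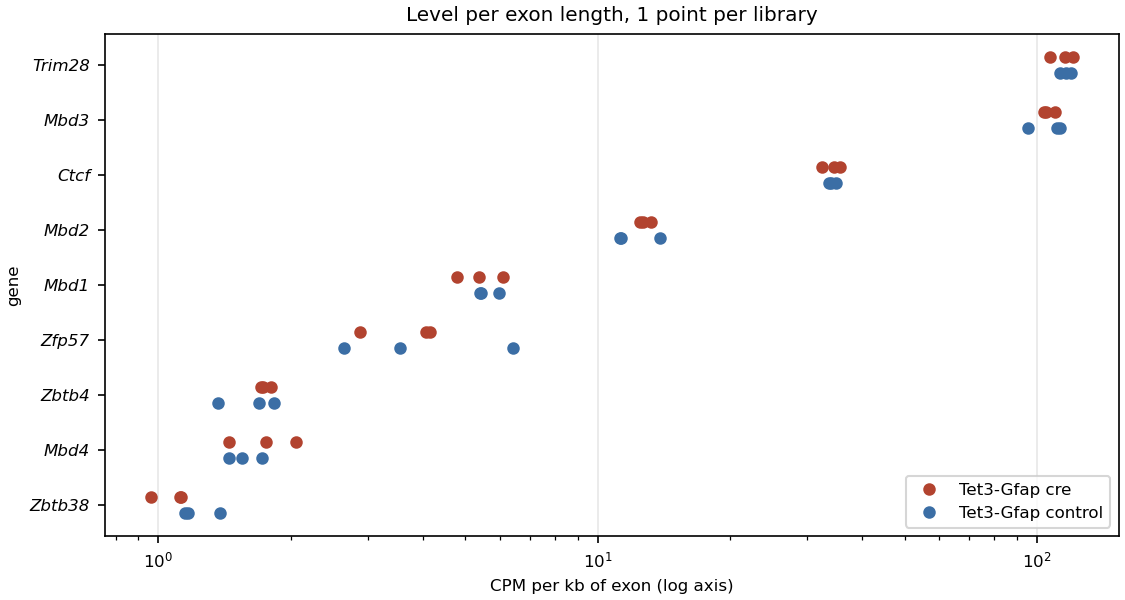
CPM per kb of exon (x axis, log scale) of the 9 genes (y axis, ordered by mean), with 1 point per library, Tet3-Gfap cre above Tet3-Gfap control within each gene. Levels run from 0.960 CPM per kb (*Zbtb38*, cre 2) to 121 CPM per kb (*Trim28*, cre 3), and the groups overlap within each gene except *Zbtb38*.

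Among the methyl-CpG binding domain genes, the abundant *Mbd3* and *Mbd2* were not called between genotypes. *Mbd3* (ENSMUSG00000035478, chromosome 10 of GRCm38 from 80392539 to 80399550, minus strand), the NuRD subunit whose mammalian form has largely lost the preference for methylated CpG, had 206, 218 and 209 CPM in the libraries labelled cre 1, 2 and 3, against 224, 221 and 189 CPM in those labelled control 1, 2 and 3. The highest and the lowest of these values both carried a control label, so the groups overlapped. *Mbd3* averaged 211 ± 6.53 CPM in cre and 211 ± 19.2 CPM in control libraries (SD, n = 3 each), with a log2 fold change of -0.0019 (95% confidence interval -0.19 to 0.18, edgeR quasi-likelihood adjusted p = 1.00), and of -0.07 in the 4 libraries (adjusted p = 0.847). *Mbd2* (ENSMUSG00000024513, chromosome 18 from 70568189 to 70626131, plus strand), which binds methylated CpG and brings NuRD to it, had 42.5, 40.8 and 40.1 CPM under the cre labels, against 36.1, 36.4 and 44.6 CPM under the control labels. The library labelled control 3 was the highest of the 6, and those labelled control 1 and 2 the lowest. *Mbd2* averaged 41.1 ± 1.26 CPM in cre and 39.0 ± 4.83 CPM in control libraries (SD, n = 3 each). By the labels its log2 fold change came to 0.077 (95% confidence interval -0.15 to 0.30, same test, adjusted p = 1.00) and 0.20 in the 4 libraries (SE 0.08, adjusted p = 0.425).

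*Mbd1* and *Mbd4* were lower in level and differed between genotypes by less than their intervals. *Mbd1* (ENSMUSG00000024561, chromosome 18 from 74267605 to 74282732, plus strand), a methyl-CpG binding transcriptional repressor, had 35.9, 32.0 and 40.8 CPM in the libraries labelled cre 1, 2 and 3, against 36.1, 36.3 and 40.0 CPM in those labelled control 1, 2 and 3. Both the lowest and the highest value were under the cre labels, and within each label the library numbered 3 was the highest. The log2 fold change was -0.05 (95% confidence interval -0.29 to 0.19, edgeR quasi-likelihood adjusted p = 1.00), with -0.09 in the 4 libraries (adjusted p = 0.831). *Mbd4* (ENSMUSG00000030322, chromosome 6 from 115840697 to 115853371, minus strand), the mismatch glycosylase, rested on 224 to 350 counts per library, the fewest of the 9 genes at their lowest. It had 9.27, 7.64 and 10.9 CPM under the cre labels, against 7.63, 8.17 and 9.07 CPM under the control labels, and the groups overlapped. *Mbd4* averaged 9.26 ± 1.62 CPM in cre and 8.29 ± 0.725 CPM in control libraries (SD, n = 3 each), a log2 fold change of 0.16 (95% confidence interval -0.20 to 0.52, same test, adjusted p = 1.00), with 0.10 in the 4 libraries (adjusted p = 0.909). The gene *Gm44206* covers 5.0% of the *Mbd4* exon bases on the other strand, and the strand setting of the authors' counting is not stated.

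The methyl-CpG binding zinc finger genes had 11.1 to 16.2 CPM in the 6 libraries. *Zbtb38* (ENSMUSG00000040433, chromosome 9 from 96682770 to 96752831, minus strand) was the only one of the 9 genes whose groups did not overlap by the labels, with 13.1, 11.3 and 13.2 CPM in the libraries labelled cre 1, 2 and 3, against 13.7, 16.2 and 13.5 CPM in those labelled control 1, 2 and 3. The values nearest to each other, 13.2 CPM under cre and 13.5 CPM under control, were those of the libraries labelled cre 3 and control 3, whose labels *Tet3* and *Gfap* went against. Of all genes tested 4.66% were lower in cre without overlap and 9.47% did not overlap in either direction, and 1 of the 9 is near that share. *Zbtb38* averaged 12.5 ± 1.09 CPM in cre and 14.5 ± 1.51 CPM in control libraries (SD, n = 3 each), and the log2 fold change came to -0.21 by the labels (95% confidence interval -0.48 to 0.06, edgeR quasi-likelihood adjusted p = 1.00) and -0.30 in the 4 libraries (SE 0.14, adjusted p = 0.535). *Zbtb4* (ENSMUSG00000018750, chromosome 11 from 69765912 to 69784023, plus strand), a repressor of the same family, had 14.0, 14.6 and 13.9 CPM under the cre labels, against 11.1, 14.9 and 13.8 CPM under the control labels. Its libraries lay together except for the one labelled control 1, which was lowest. The log2 fold change of *Zbtb4* was 0.10 (95% confidence interval -0.19 to 0.38, same test, adjusted p = 1.00), with 0.14 in the 4 libraries (adjusted p = 0.859).

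**Figure D3:**
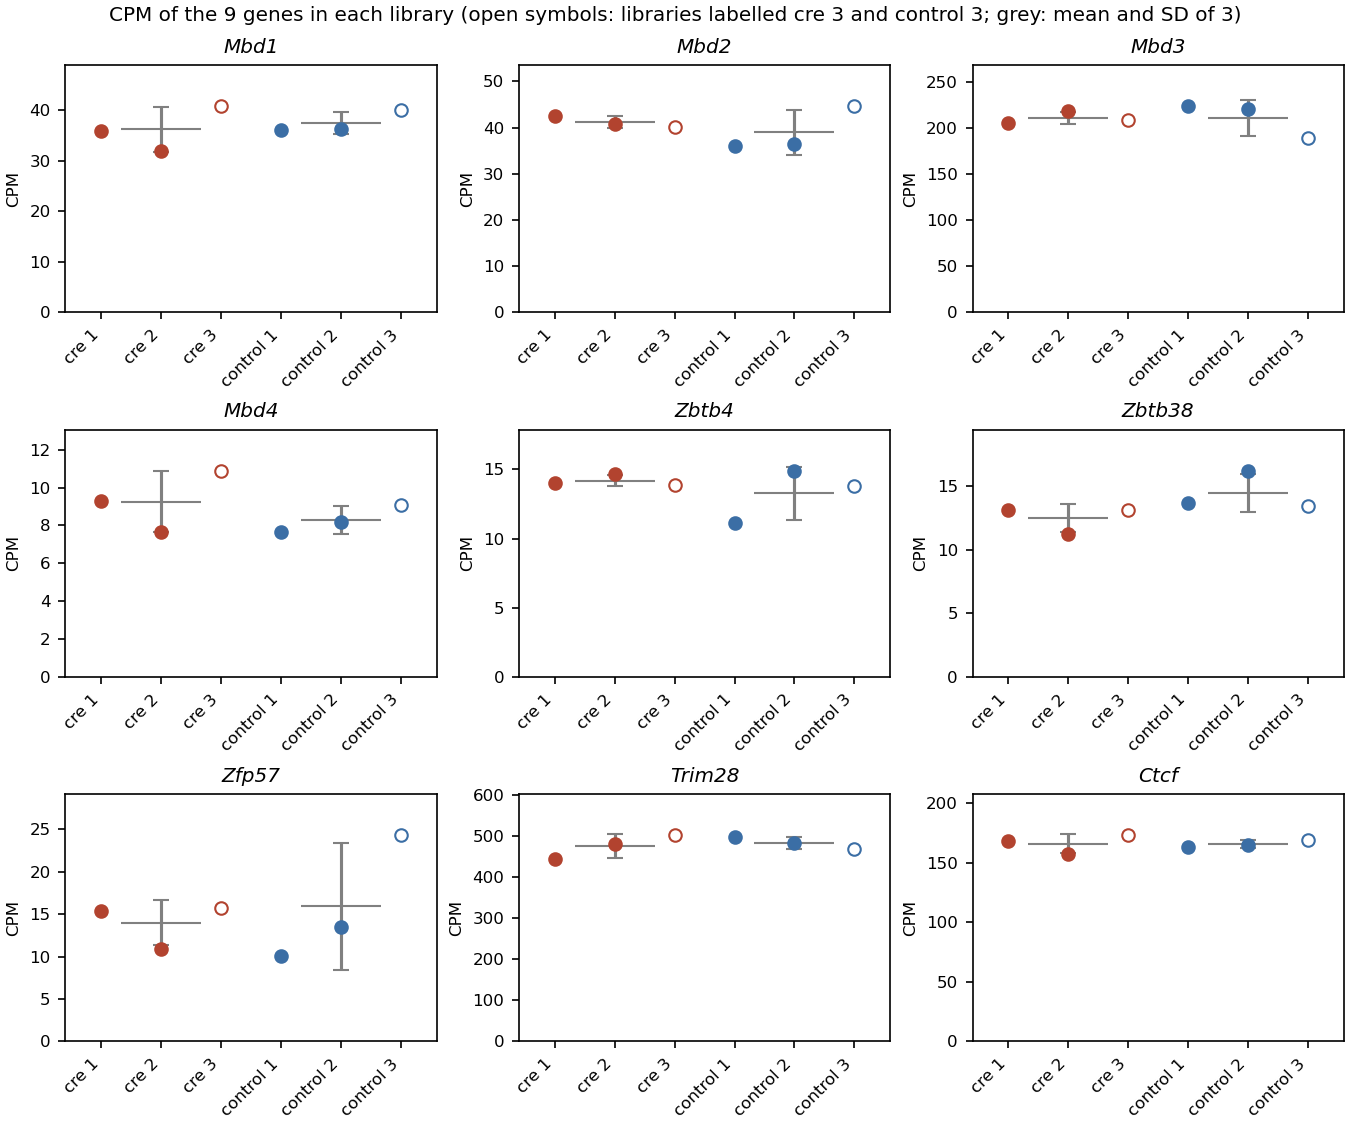
CPM (y axis, from 0) of each of the 9 genes in the 6 libraries (x axis), cre in red and control in blue, with open symbols for the libraries labelled cre 3 and control 3 and grey bars for the mean and SD of 3 libraries. *Zbtb38* is the only gene without overlap between the groups, and *Zfp57* reaches 24.2 CPM in control 3 against 10.0 to 15.7 CPM in the other 5 libraries.

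*Zfp57* was the member that varied most, and it varied between libraries of the same label. *Zfp57* (ENSMUSG00000036036, chromosome 17 from 37001163 to 37010635, plus strand) had 15.4, 10.9 and 15.7 CPM in the libraries labelled cre 1, 2 and 3, against 10.0, 13.4 and 24.2 CPM in those labelled control 1, 2 and 3, from 319 to 821 counts. The library labelled control 3 was the highest and the one labelled control 1 the lowest, so all 3 cre values lay between control values. *Zfp57* averaged 14.0 ± 2.69 CPM in cre and 15.9 ± 7.43 CPM in control libraries (SD, n = 3 each). By the labels its log2 fold change came to -0.18 (95% confidence interval -0.91 to 0.54, edgeR quasi-likelihood adjusted p = 1.00). It was 0.17 in the 4 libraries (same test, adjusted p = 0.874) and 0.25 without the library labelled control 3 alone (adjusted p = 0.753), so that this library set the sign. The highest value was 2.42 times the lowest, and the coefficient of variation over the 6 libraries was 34.2%, where the counts alone would give about 4.69%. On the log2 CPM scale its SD over libraries exceeded that of 86.7% of the genes tested.

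*Trim28* and *Ctcf*, in contrast, were among the steadiest genes of the table. *Trim28* (ENSMUSG00000005566, chromosome 7 from 12999114 to 13031035, plus strand) had 445, 481 and 501 CPM in the libraries labelled cre 1, 2 and 3, against 497, 483 and 468 CPM in those labelled control 1, 2 and 3. The cre values spanned the control values. *Trim28* averaged 476 ± 28.5 CPM in cre and 483 ± 14.5 CPM in control libraries (SD, n = 3 each), with a log2 fold change of -0.02 (95% confidence interval -0.18 to 0.14, edgeR quasi-likelihood adjusted p = 1.00), and of -0.08 in the 4 libraries (adjusted p = 0.797). *Ctcf* (ENSMUSG00000005698, chromosome 8 from 105636568 to 105682922, plus strand) had 168, 158 and 173 CPM under the cre labels, against 163, 165 and 169 CPM under the control labels. It again had its lowest and its highest value under the cre labels. The log2 fold change of *Ctcf* was 0.0031 (95% confidence interval -0.14 to 0.15, same test, adjusted p = 1.00), with -0.014 in the 4 libraries (adjusted p = 0.975). Over the 6 libraries the SD of log2 CPM was 0.063 for *Trim28* and 0.047 for *Ctcf*, beside a median of 0.16 over the genes tested, and only 9.63% and 3.59% of those genes had a smaller one. *Agrp* and *Gm5914* cover 7.61% of the *Ctcf* exon bases on the other strand.

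**Figure D4:**
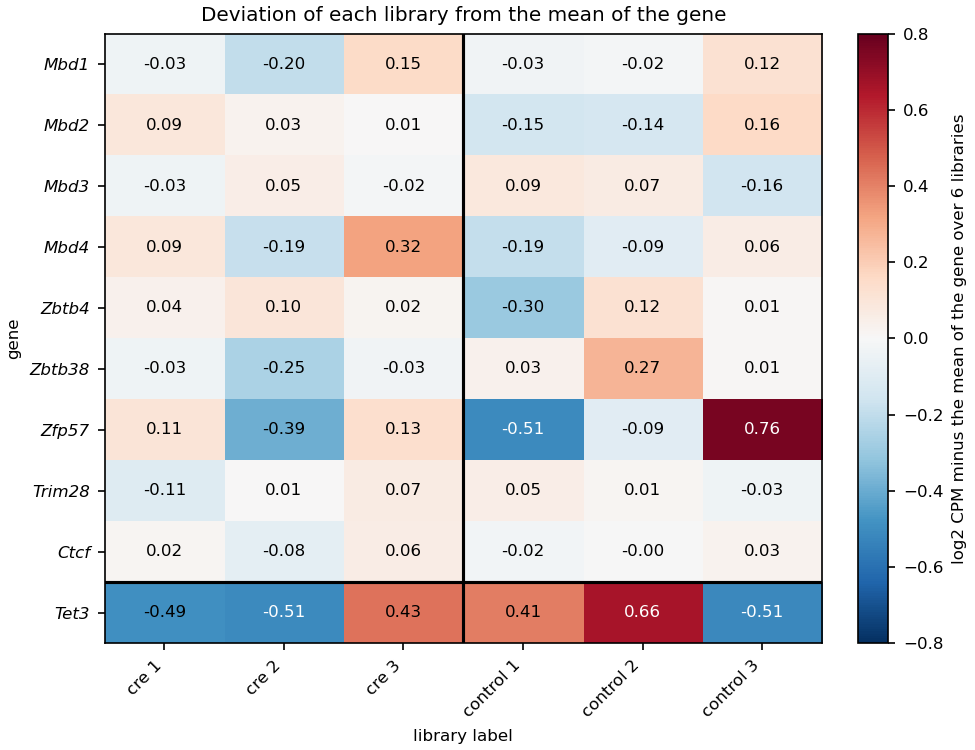
Log2 CPM of each library minus the mean of the gene over the 6 libraries (colour and printed value) for the 9 genes and *Tet3* (rows) in libraries ordered by label (columns). The largest deviation of a member is 0.76 (*Zfp57*, control 3), while *Ctcf* stays between -0.08 and 0.06; the *Tet3* row has its low values in cre 1, cre 2 and control 3.

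The promoters of these genes differed in CpG content. In the RefSeq windows on GRCm38.p6, from 250 bases before to 50 bases after a start site, 7 of the 9 genes had at least 1 entry. *Mbd1* and *Mbd2* had none in the set of windows used here. The *Zfp57* windows at its 3 start sites held 4, 6 and 9 CpGs, on either side of the median of 7 over 32851 windows of all genes. Each of *Ctcf* (47), *Mbd4* (25), *Trim28* (23), *Mbd3* (22) and *Zbtb4* (22) held more than any of these, and *Zbtb38* had 8, 25 and 41 at its 3 start sites. The 6-base ZFP57 motif TGCCGC, searched on both strands, occurred at 1 place in the *Trim28* window and 1 in a *Zbtb38* window, and 11.6% of all windows held it. Below are shown the window of *Zfp57*, at the annotated start of the gene (chr17:37000913-37001212, plus strand), and for contrast those of its partner *Trim28* (chr7:13023902-13024201, plus strand), of the CpG-rich *Ctcf* (chr8:105636288-105636587, plus strand) and of *Mbd3* (chr10:80399482-80399781, minus strand), written 5′ to 3′ with each CpG in capitals.
Zfp57: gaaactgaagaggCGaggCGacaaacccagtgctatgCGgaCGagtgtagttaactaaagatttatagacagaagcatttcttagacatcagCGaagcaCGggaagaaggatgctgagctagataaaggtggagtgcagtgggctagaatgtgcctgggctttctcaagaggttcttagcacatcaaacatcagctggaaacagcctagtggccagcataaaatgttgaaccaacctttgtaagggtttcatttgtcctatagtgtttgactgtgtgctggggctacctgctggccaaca
Trim28: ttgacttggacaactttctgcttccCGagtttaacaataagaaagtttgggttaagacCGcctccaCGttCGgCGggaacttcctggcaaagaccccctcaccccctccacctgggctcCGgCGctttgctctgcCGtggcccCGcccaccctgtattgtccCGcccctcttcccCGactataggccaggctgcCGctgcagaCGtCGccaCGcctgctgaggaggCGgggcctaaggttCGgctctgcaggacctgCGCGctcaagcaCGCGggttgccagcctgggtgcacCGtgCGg
Ctcf: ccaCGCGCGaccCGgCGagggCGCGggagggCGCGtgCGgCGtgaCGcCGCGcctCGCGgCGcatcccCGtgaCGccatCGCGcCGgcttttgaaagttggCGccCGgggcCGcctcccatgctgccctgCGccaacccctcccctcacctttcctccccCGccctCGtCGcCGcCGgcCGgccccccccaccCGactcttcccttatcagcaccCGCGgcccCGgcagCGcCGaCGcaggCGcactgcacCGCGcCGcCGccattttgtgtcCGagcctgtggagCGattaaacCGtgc
Mbd3: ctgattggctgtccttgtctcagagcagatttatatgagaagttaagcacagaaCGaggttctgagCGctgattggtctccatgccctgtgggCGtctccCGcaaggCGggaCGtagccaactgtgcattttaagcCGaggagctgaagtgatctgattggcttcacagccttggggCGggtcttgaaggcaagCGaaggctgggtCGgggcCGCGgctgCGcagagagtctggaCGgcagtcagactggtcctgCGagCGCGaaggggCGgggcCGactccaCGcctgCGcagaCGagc

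The members followed each other across libraries in part, which is given as a description over 6 libraries that share their culture system and depth. Of 36 pairs, *Mbd1* and *Ctcf* had the highest Pearson r of log2 CPM (0.93), followed by *Mbd4* and *Ctcf* (0.91). *Mbd3* and *Zfp57* ran in opposite directions (r = -0.95), as did *Mbd3* and *Mbd2* (r = -0.88), for which the library labelled control 3 held the lowest *Mbd3* and the highest *Zfp57* and *Mbd2*. Among 11778 genes that averaged 5 CPM or more, those whose pattern was most like that of *Zfp57* included *Vps50* (r = 0.995) and *Nucks1* (r = 0.994), and 384 genes had r above 0.9. *Nucks1* had 356, 302 and 368 CPM under the cre labels and 301, 340 and 465 CPM under the control labels, again with its highest value in control 3. Within a library, *Mbd3* stood 7.83, 8.67 and 8.41 times above its NuRD alternative *Mbd2* per kilobase under the cre labels and 10.0, 9.82 and 6.87 times under the control labels. By the labels these ratios overlapped (two-sided exact permutation test on 3 against 3 libraries, p = 0.6, 0.8 adjusted over 4 ratios), whereas without the libraries labelled cre 3 and control 3 those under cre lay below those under control, a difference that was not tested. *Trim28* stood 26.3, 40.2 and 29.1 times above *Zfp57* under the cre labels and 45.2, 32.8 and 17.6 times under the control labels (p = 1.0 by the same exact test). Per kilobase the *Trim28* level thus exceeded that of its DNA-binding partner in each of the 6 libraries.

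Among the partners of these proteins no gene was called by the labels. Of 12 NuRD subunits, all tested, edgeR's quasi-likelihood test called 0 by the labels and 0 in the 4 libraries, and the median of their log2 fold changes by the labels was 0.0063. Its ATPase *Chd4* had 491, 544 and 512 CPM under the cre labels and 494, 525 and 477 CPM under the control labels, and the histone-binding subunit *Rbbp4* 366 to 415 CPM over the 6 libraries. Only the minor ATPase genes *Chd3* (log2 fold change -0.59, adjusted p = 1.00) and *Chd5* (0.39, adjusted p = 1.00) lay past 0.3 in either direction, at 2.45 to 15.3 CPM and 2.58 to 5.88 CPM over the 6 libraries, and they are named here after their values were seen. In the 4 libraries their log2 fold changes were larger, at -1.43 for *Chd3* (adjusted p = 0.136) and 0.68 for *Chd5* (adjusted p = 0.417). *Chd3* had 4.10, 4.44 and 8.33 CPM under the cre labels, against 15.3, 7.72 and 2.45 CPM under the control labels, so that the libraries labelled cre 3 and control 3 stood apart from their groups. Of 9 TRIM28 partners, all tested, 0 were called, and the heterochromatin protein gene *Cbx5* had 660 to 700 CPM and *Cbx3* 167 to 192 CPM over the 6 libraries. Of 12 genes of cohesin, the complex that CTCF halts on DNA, and of its regulators, 0 were called. The cohesin subunit genes *Rad21* and *Smc1a* had log2 fold changes of 0.0027 and -0.02. Each of these lists had a median size of log2 fold change (0.037, 0.041 and 0.023) under the 0.087 of all genes tested, and the sizes were not compared at matched levels.

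Of 14 further readers and methyl-CpG binding domain genes, 10 were tested and 0 called, with a median size of log2 fold change of 0.014. *Uhrf1*, which reads hemimethylated DNA for the maintenance methyltransferase, averaged 231 ± 21.1 CPM in cre and 252 ± 23.1 CPM in control libraries (SD, n = 3 each; log2 fold change -0.13, edgeR quasi-likelihood adjusted p = 1.00). *Zfp445*, another zinc finger guardian of imprints, averaged 141 ± 5.05 CPM in cre and 142 ± 11.2 CPM in control libraries (SD, n = 3 each). The tested repair partners of MBD4 numbered 10 of 10, with 0 called and a median log2 fold change of -0.07, or 0.074 in size, beside -0.0050 and 0.087 over all genes tested. By the labels 0 of these 10 log2 fold changes lay above 0, which was not so in the 4 libraries, and this was not tested. *Tdg*, the other mismatch-specific thymine glycosylase gene, had 120 to 131 CPM and *Parp1* 291 to 402 CPM over the 6 libraries, with the highest *Parp1* in control 3; the log2 fold change came to -0.06 by the labels and to 0.11 in the 4 libraries.

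Genes at the imprinting control regions that ZFP57 and TRIM28 occupy were also not called by the labels, with 0 of 18 tested among 22 listed (smallest edgeR quasi-likelihood adjusted p = 0.972). Their median size of log2 fold change was 0.16, above the 0.087 of all genes tested. In level the list runs from *Igf2* at 0.452 to 0.808 CPM up to *Mest* at 737 to 982 CPM, and the sizes were not compared at matched levels. *Nnat* and *Grb10* were higher in cre without overlap, as were 4.81% of all genes tested, with log2 fold changes of 0.20 (adjusted p = 0.974) and 2.18 (adjusted p = 0.972). In the 4 libraries these were 0.11 (adjusted p = 0.727) and 2.97 (adjusted p = 0.245). The abundant *Mest* had 957, 864 and 889 CPM under the cre labels and 927, 737 and 982 CPM under the control labels, and *Peg10* 281, 336 and 243 CPM against 513, 312 and 276 CPM. In the 4 libraries the same test called 1 of the 18, *Snrpn* (log2 fold change 0.81, adjusted p = 0.0288), against 0.459% of the 17003 genes tested. Those 4 libraries were chosen by their *Tet3* and *Gfap* values, and how far that choice favoured this call was not tested. *Snrpn* had 42.6, 46.8 and 36.0 CPM under the cre labels, against 24.8, 26.3 and 48.6 CPM under the control labels, with its highest value in the library labelled control 3. The level of *Zfp57* in those 4 libraries overlapped between groups, at 10.9 and 15.4 CPM under the cre labels and 10.0 and 13.4 CPM under the control labels. Whether the levels of *Zfp57* and *Snrpn* are related was not tested.

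**Figure D5:**
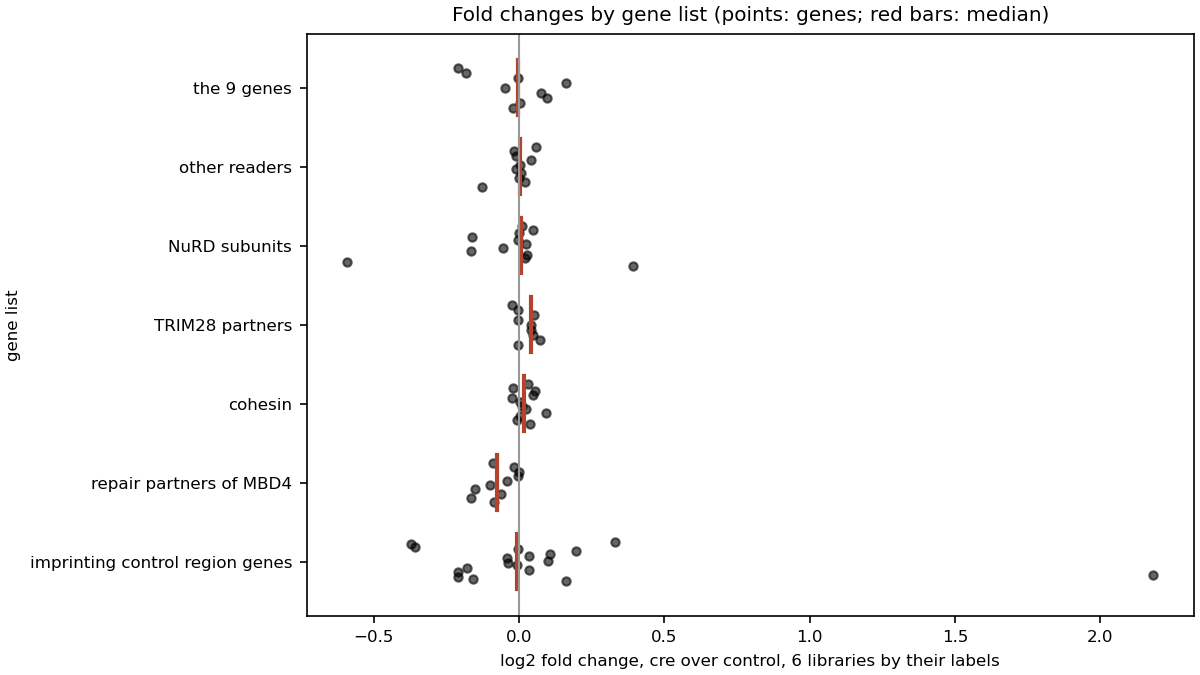
Log2 fold change of cre over control by the labels (x axis) for the tested genes of each list (y axis), 1 point per gene with the median as a red bar. The medians of all 7 lists lie between -0.07 and 0.04, and the point at 2.18 is *Grb10*, which had 0.0942 to 13.5 CPM.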

How the data were processed

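Counts per gene were deposited by the authors for 6 neurosphere libraries, as whole numbers with no normalization. Per the paper's methods, stranded mRNA libraries were sequenced on a NextSeq instrument, aligned to GRCm38.p5 with Subread and counted over the Ensembl GRCm38.87 annotation with Rsubread. Versions and the strand, multi-mapping and overlap settings are not given in the sources used here. Count columns were assigned by their names, which equal the sample titles.

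edgeR 4.0.16 in R 4.3.3 was run on the whole table, with TMM normalization, filterByExpr (16916 of 49671 genes kept) and the quasi-likelihood test, Benjamini-Hochberg adjustment over all genes tested and a threshold of 0.05. Confidence intervals of 95% use the test's degrees of freedom and cover the spread between libraries. The script was tested on simulated data. Exon lengths and coordinates come from GENCODE M21 (GRCm38, a later release than the authors used) and promoter windows from RefSeq (GRCm38.p6). CPM per kb divides CPM by the joined exon length. Log2 CPM values use a prior count of 2.

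The members and lists were chosen with earlier results of these data known. Named were all members, *Tet3* and *Gfap*, the called genes of a list by the labels (4 at most) or, with none, its 2 highest by mean CPM, and the 3 genes most like the widest-ranging member, of which 1 is not reported here. *Chd3*, *Chd5*, *Nnat*, *Grb10* and *Snrpn* are named after their values were seen. Alternatives were RLE normalization, library size only, no filter, at least 1 CPM in at least 3 libraries, DESeq2 1.42.0, edgeR's likelihood-ratio and exact tests, limma-voom (limma 3.58.1), a block for the replicate number, and fits without each library in turn or without both that went against their labels.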

Additional observations from a re-analysis of the deposited data

How the results depend on the processing

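Over 16 alternatives, edgeR's quasi-likelihood test and the other tests called none of the 9 genes in any of 144 gene and setting combinations. *Mbd2* and *Mbd4* stayed above 0 and *Zbtb38* below 0 throughout, while the other 6 changed sign in 18 of these. The log2 fold change of *Mbd3* was 0.00095 with library size only, 0.0018 with limma-voom and 0.0017 with the replicate block. Without the libraries labelled cre 3 and control 3, that of *Zfp57* was 0.17, of *Ctcf* -0.014, of *Tet3* -1.04 and of *Gfap* 3.14 (adjusted p = 0.0159 and 0.0206 for *Tet3* and *Gfap* from edgeR's quasi-likelihood test). There 1 of 18 tested genes of the imprinting control region list, *Snrpn*, was called, against 0.459% of all genes tested. Those libraries were left out for their *Tet3* and *Gfap* values, so the p-values of *Tet3* and *Gfap* there are no independent tests. Leaving out 1 library at a time gave log2 fold changes of -0.14 to 0.033 for *Mbd1*, -0.077 to 0.042 for *Mbd3*, -0.014 to 0.19 for *Zbtb4*, -0.43 to 0.25 for *Zfp57*, -0.063 to 0.025 for *Trim28* (-0.084 without both libraries), -0.029 to 0.040 for *Ctcf* and -0.49 to 2.61 for *Gfap*. Those that kept their sign also moved, from 0.025 to 0.18 for *Mbd2*, 0.028 to 0.28 for *Mbd4*, -0.26 to -0.12 for *Zbtb38* and -0.77 to -0.14 for *Tet3*. The number of genes called over the whole table, 0 by the labels with the quasi-likelihood test, was 3 without a filter, 51 with the likelihood-ratio test, 68 with the exact test, 70 with DESeq2 and 78 in the 4 libraries. It was 0 to 18 on leaving out 1 library, with 18 without control 3, and the cause was not tested. Same-numbered libraries did not deviate together (r of their deviations from the group means -0.09, 0.0078 and -0.02), and the replicate block called 0 genes. Depth limits *Mbd4* most, where the counts alone give a coefficient of variation of 5.95%.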

Other observations

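The 3 libraries with the highest *Mbd2* (44.6, 42.5 and 40.8 CPM), labelled control 3, cre 1 and cre 2, were also the 3 with the lowest *Tet3* (60.3, 61.3 and 60.5 CPM). The other 3, labelled cre 3, control 2 and control 1, had 40.1, 36.4 and 36.1 CPM of *Mbd2* and 116, 136 and 114 CPM of *Tet3*. The *Mbd2* values nearest to each other across this split differ by less than 1 CPM. *Trim28* split the same way in the other direction. It had 445, 481 and 468 CPM in cre 1, cre 2 and control 3. In cre 3, control 1 and control 2 it had 501, 497 and 483 CPM. The remaining members overlapped across the split. Outside the members, *Snrpn* (higher with low *Tet3*) and *Chd3* (lower) also separated. The split was noticed after the values had been seen and was not tested, and the share of all genes that follow it was not computed.

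Ratios per kilobase were computed for 4 of the 36 pairs of members, and by the labels 2 of these 4 ratios did not overlap between groups. How often the ratios of other gene pairs do so was not computed. The libraries labelled cre 3 and control 3 went against their labels for *Tet3* and *Gfap*. *Mbd1* stood 3.05, 3.30 and 2.95 times above *Mbd4* in the libraries labelled cre 1, 2 and 3, and 3.72, 3.50 and 3.48 times in those labelled control 1, 2 and 3. *Zbtb4* stood 1.54, 1.88 and 1.52 times above *Zbtb38* under the cre labels and 1.17, 1.33 and 1.47 times under the control labels. Each gave p = 0.1 in a two-sided exact permutation test, the smallest p that 3 against 3 libraries allow, and 0.2 adjusted over the 4 ratios.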
